A study of Homo sapiens with 53 samples.

Results

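The regions described here are 15 windows beside the centromeres of chromosomes 1, 2, 4, 7, 10, 16, 17 and 19 of the human genome (build hg19), 11.8 Mb in all. Their members are the chromatin immunoprecipitation sequencing (ChIP-seq) peaks that overlap a window. Position alone chose them, and no measured value entered the rule. They number 1894 of the 706206 peaks in 10 peak lists. On chromosome 1 the windows are chr1:121000001-121600000 and chr1:142500001-143000000, on chromosome 2 chr2:89800001-92400000, and on chromosome 4 chr4:48900001-49700000 and chr4:52600001-52800000. On chromosome 7 they are chr7:57500001-58100000 and chr7:61000001-62500000, and on chromosome 10 chr10:38700001-39200000 and chr10:42300001-42900000. On chromosome 16 they are chr16:33800001-35300000 and chr16:46300001-46600000, on chromosome 17 chr17:21500001-22300000 and chr17:25200001-25500000, and on chromosome 19 chr19:24400001-24700000 and chr19:27700001-28400000. Where a chromosome has a pair of windows, they are called its first and second window in this order.

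Human centromeres and the chromatin beside them are built on satellite DNA, short sequence units repeated head to tail over long stretches and usually packed as heterochromatin with methylated cytosines. A genome assembly holds few of the many near-identical copies, so that fragments from all copies collect on the few that it shows, both in immunoprecipitates and in sonicated input DNA. CTCF binds DNA through zinc fingers, helps to hold chromatin loops together, and is kept from many of its sites by cytosine methylation. MBD3 is a subunit of NuRD, a complex that remodels nucleosomes and removes acetyl groups from histones. TET1, TET2 and TET3 are dioxygenases that oxidise methylated cytosine, a step towards its removal.

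The cells were HEK293T, an established human embryonic kidney line. They received BPK-25, a small molecule, at 30 µM for 72 h, or DMSO, its solvent, per the labels. CTCF and MBD3 were precipitated from the parental cells with antibodies against each, and the TET proteins with a Flag antibody from derived lines that carry Flag-tagged TET1, TET2 or TET3. The sources used here do not give the promoter that drives a tagged TET gene, nor whether a line is a single clone. Of 53 samples in 18 groups, 29 are immunoprecipitates and 24 inputs. CTCF and MBD3 share the inputs of a treatment, and each TET line has its own. A group has 3 labelled replicates, apart from TET2 under DMSO with 2, whose list is named for 3.

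Each group has 1 list, taken as called on its pooled replicates, so that no difference between treatments has a replicate check and none was tested. A fold enrichment is the peak caller's ratio of the pileup of immunoprecipitated fragments at a summit to the background there. The local background is the number of fragments that the caller set against the pileup. Here it is given as a multiple of the genome background, the lowest local background of the list, a stand-in for the depth of its libraries. It ranged from 1.05 fragments for TET2 to 2.58 for CTCF over the 5 BPK-25 lists, and from 1.25 for TET2 to 3.68 for CTCF over the DMSO lists. A local background of 20 or more multiples is called high, and one of 5 to under 20 raised. No sequence or repeat annotation of hg19 was used here, so which peaks lie in satellite repeats was not established. Of the 1894 window peaks 324 had a high local background, 311 a raised one and 1259 one under 5 multiples, and the windows therefore also hold DNA covered like the rest of the genome.

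All 5 proteins had more peaks in the windows under BPK-25 than under DMSO. CTCF had 671 window peaks under BPK-25 and 193 under DMSO, a ratio of 3.48, beside a ratio of 2.46 over the peaks outside the windows. MBD3 had 632 and 196 in these treatments, a ratio of 3.22, beside 2.95 outside. With a background under 5 multiples the ratios were 2.71 for CTCF and 3.14 for MBD3, beside 2.46 and 2.95 outside. With a raised background they were 7.61 and 2.76, beside 2.65 and 2.48. With a high one they were 32.5 and 7.1, on 2 and 8 DMSO window peaks, beside 8.79 and 4.40. For the TET proteins the ratio was above 1 in the windows and below 1 over all peaks outside them. TET1 had 39 window peaks under BPK-25 and 18 under DMSO, a ratio of 2.17, whereas outside the windows it had 408 and 5933, a ratio of 0.0688. TET2 had 63 and 31, a ratio of 2.03, beside 0.371 outside. TET3 had 35 and 16, a ratio of 2.19, beside 0.944 outside. This contrast was not seen among peaks of high local background, the class of nearly all TET window peaks. Outside the windows TET1 had 57 such peaks under BPK-25 and 19 under DMSO, a ratio of 3.00, TET2 had 107 and 27 (3.96), and TET3 had 68 and 27 (2.52). In the windows the ratios over high-background peaks were 2.24, 2.17 and 2.00 in the same order. The windows thus held 8.72% of the BPK-25 TET1 list and 0.302% of the DMSO TET1 list, and 12.4% of the BPK-25 TET2 list and 2.51% of the DMSO TET2 list.

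Per megabase, CTCF and MBD3 peaks were sparser in the windows than outside them in both treatments. The density of CTCF peaks in the windows was 56.9 per Mb under BPK-25 and 16.4 per Mb under DMSO, which is 0.687 and 0.490 times that over the rest of chromosomes 1 to 22 and X in the same list. For MBD3 these ratios were 0.653 under BPK-25 and 0.598 under DMSO, and for TET3 0.660 and 0.284. The TET1 ratio was 25.9 under BPK-25 and 0.762 under DMSO, and the TET2 ratio 42.0 and 6.54. The window lengths include assembly gaps, which lower a density.

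**Figure D1:**
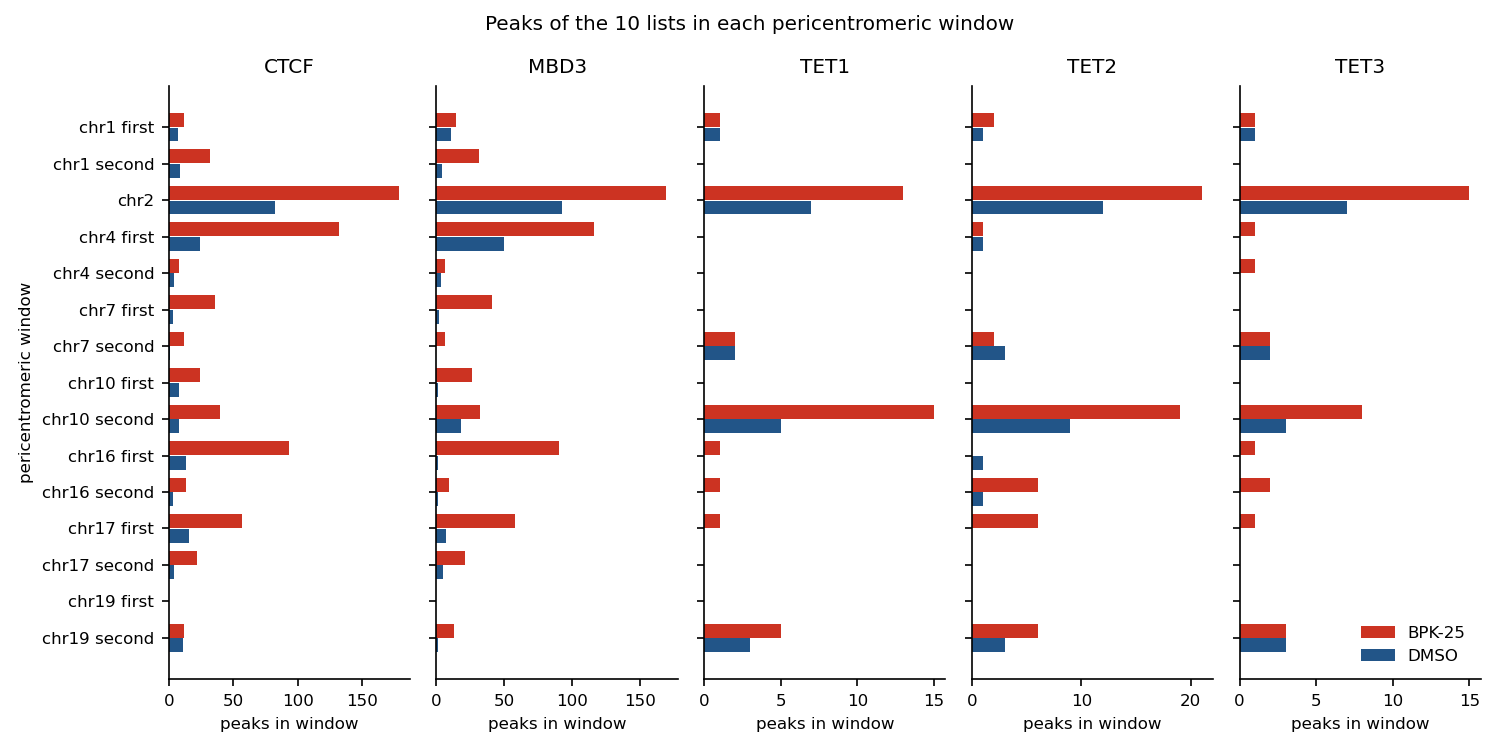
Number of peaks in each window (x axis) for the 15 windows (y axis, first and second window of a chromosome in genome order), 1 panel per protein, BPK-25 bars above DMSO bars; the x scales differ between panels. CTCF and MBD3 bars are longer under BPK-25 in each window that holds a peak, and the TET bars stand mainly in the chromosome 2 window and the second chromosome 10 window.

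Of the 15 windows, 14 held a peak, and the first chromosome 19 window held none in any list. CTCF and MBD3 each had more peaks under BPK-25 in all 14. The chromosome 2 window, the longest, held 178 CTCF peaks under BPK-25 and 82 under DMSO. The first chromosome 4 window held 132 and 24, the first chromosome 16 window 93 and 13, and the first chromosome 7 window 36 and 3. The second chromosome 19 window was nearly even for CTCF, with 12 peaks under BPK-25 and 11 under DMSO, but held 13 and 1 for MBD3. MBD3 had 90 peaks under BPK-25 and 1 under DMSO in the first chromosome 16 window.

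TET peaks were found in 10 windows, and 134 of the 202 TET peaks, or 66.3%, lay in the chromosome 2 window and the second chromosome 10 window. TET2 had fewer peaks under BPK-25 than under DMSO in 2 windows, and no window had fewer TET1 or TET3 peaks. In some windows the TET peaks of high local background occupied a small stretch. On chromosome 2 all 72 lay between 92281273 and 92325289, 44.0 kb near the end of the window. On chromosome 19 all 22 lay between 27731925 and 27738970, and on chromosome 7 all 12 lay between 61968747 and 61970545. Elsewhere they were spread: the 59 of the second chromosome 10 window spanned 215 kb, the 8 of the first chromosome 17 window 241 kb and the 7 of the first chromosome 1 window 133 kb. CTCF peaks under BPK-25 spanned 2465 kb of the chromosome 2 window.

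The local background separated the TET peaks of the windows from the CTCF and MBD3 peaks. High local background was found at 38 of 39 TET1 window peaks under BPK-25 and 17 of 18 under DMSO, against 21.3% and 0.605% of all peaks in these lists. For TET2 it was found at 63 of 63 and 29 of 31, against 33.4% and 4.54%, and for TET3 at 30 of 35 and 15 of 16, against 0.734% and 0.297%. For CTCF it was found at 65 of 671 window peaks under BPK-25 and 2 of 193 under DMSO, against 0.0945% and 0.0211% of all CTCF peaks. For MBD3 the counts were 57 of 632 and 8 of 196, against 0.0868% and 0.0522%. The median local background of TET window peaks lay between 328 and 413 multiples in the 6 TET lists, whereas that of CTCF was 2.77 under BPK-25 and 1.35 under DMSO, and that of MBD3 2.74 and 2.44.

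Of all peaks of high local background in a list, the windows held 28.0% for CTCF under BPK-25 and 9.52% under DMSO, and 27.0% and 18.6% for MBD3. The TET1 shares were 40% under BPK-25 and 47.2% under DMSO, those of TET2 37.1% and 51.8%, and those of TET3 30.6% and 35.7%. The part that collapsed repeat copies or the input libraries play in these values was not tested.

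**Figure D2:**
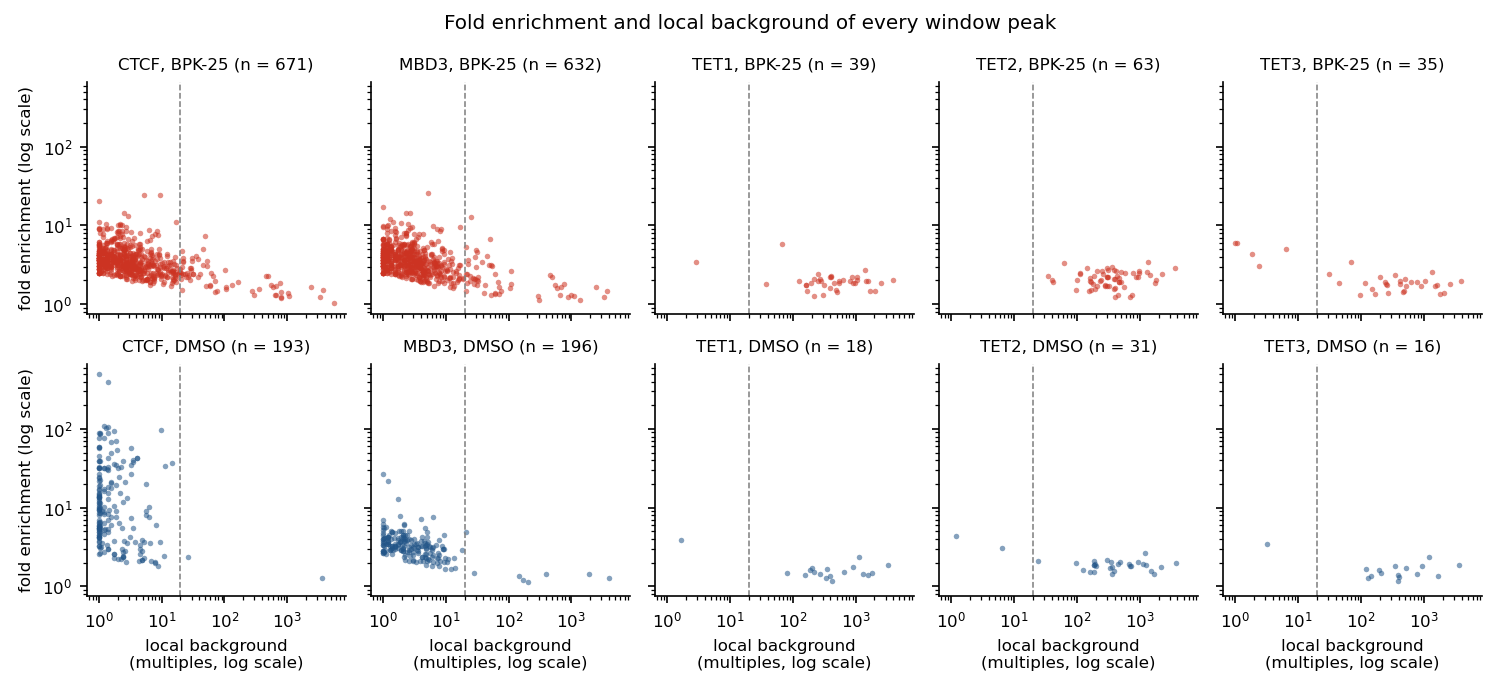
Fold enrichment (y axis, log scale) against local background (x axis, multiples of the genome background, log scale) of each window peak, BPK-25 in the upper row and DMSO in the lower row, 1 column per protein; the dashed line marks 20 multiples. CTCF under DMSO reaches a fold enrichment of 495 at low background, and nearly all TET points lie right of the line with fold enrichments under 4.

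Fold enrichments at high local background were small. The median over window peaks of high background was 2.20 for CTCF under BPK-25 and 1.82 under DMSO, and 1.89 and 1.38 for MBD3. TET1 had medians of 1.94 under BPK-25 and 1.50 under DMSO, TET2 of 2.14 and 1.89, and TET3 of 1.80 and 1.46. At window peaks with a background under 5 multiples the median was 3.66 for CTCF under BPK-25 and 9.61 under DMSO, and 3.70 and 3.41 for MBD3. The pileups at the TET peaks were nevertheless large, with a median of 868 genome backgrounds for TET1 under BPK-25 and 514 under DMSO. A ratio near 1 in the presence of so many fragments can still pass the caller: the median −log10 q was 117 for these TET1 peaks under BPK-25 and 26.1 under DMSO.

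The TET peaks of DMSO cells were mostly found again under BPK-25. For TET1, 14 of 18 DMSO window peaks, or 77.8% (95% exact interval 52.4 to 93.6), overlapped a BPK-25 peak by at least 1 bp, against 4.59% of the whole list. For TET2 it was 29 of 31, or 93.5% (78.6 to 99.2), against 24.7%, and for TET3 13 of 16, or 81.3% (54.4 to 96.0), against 31.9%. These intervals cover counting error only. New peaks, those with no DMSO peak beneath them, were 25 of 39 for TET1, against 38.5% of the whole BPK-25 list. They were 35 of 63 for TET2, against 40.3%, and 22 of 35 for TET3, against 65.8%. With the peaks of high local background left out, 1 DMSO peak each of TET1 and TET3 and 2 of TET2 remained in the windows, and none was retained. Outside the windows, DMSO TET peaks of high local background were retained in 13 of 19 cases for TET1, 25 of 27 for TET2 and 21 of 27 for TET3. New peaks made up 82.5%, 78.5% and 76.5% of the BPK-25 peaks of high local background there, in the same order. In the windows they made up less of this class, 63.2%, 55.6% and 56.7%. The outside shares take in sequences beyond chromosomes 1 to 22 and X, and were not counted on these chromosomes alone.

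**Figure D3:**
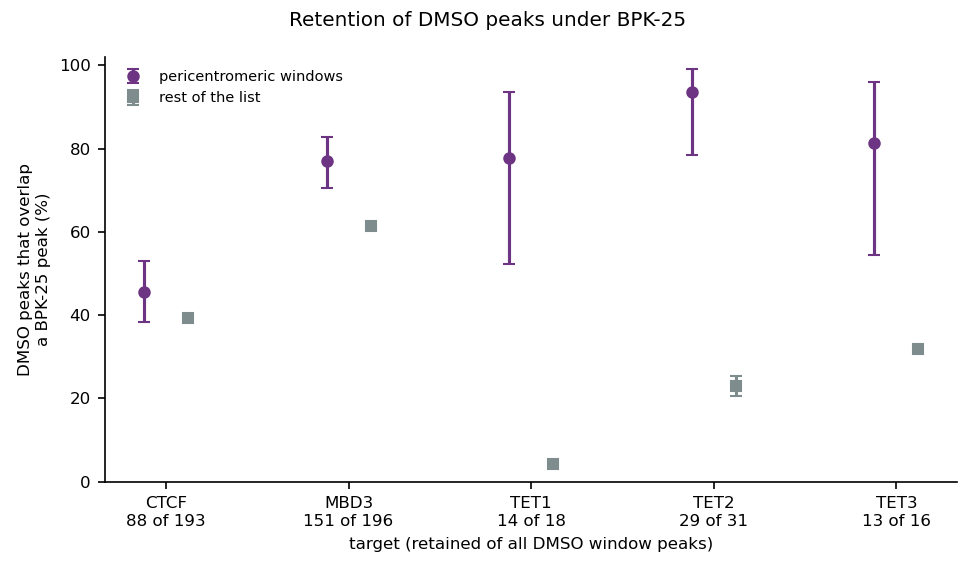
Share of DMSO peaks that overlap a BPK-25 peak of the same protein (y axis, percent) for the 5 proteins (x axis), in the windows (circles) and in the rest of the list (squares), with exact 95% binomial intervals for counting error. The 3 TET proteins show the widest gap, with 77.8% or more in the windows and 31.8% or less outside.

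To follow single places across lists, window peaks of all lists that overlapped or lay within 1000 bp were joined into 609 blocks. A block's fold enrichment in a list is that of its most significant summit there, which may be another summit in another list. Of the blocks, 233 were held by 1 list and 228 by 2, and 15 were held by 6 or more. All 15 had a high local background in some list. No block was held by all 10 lists.

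TET fold enrichment was higher under BPK-25 at nearly all blocks held in both treatments. For TET1 it was higher at 10 of 10 such blocks, with a median of 2.04 (range 1.48 to 2.68) under BPK-25 and 1.60 (1.36 to 2.34) under DMSO. For TET2 it was higher at 18 of 20, with 2.46 (1.90 to 3.45) and 1.92 (1.53 to 2.68). For TET3 it was higher at 9 of 10, with 1.93 (1.56 to 2.56) and 1.68 (1.35 to 2.37). The 3 exceptions were small: TET2 had 1.90 and 1.97 at chr16:46424734-46425050 and 2.01 and 2.07 at chr4:49151163-49152716, and TET3 had 1.56 and 1.64 at chr2:92316207-92316783, in each case under BPK-25 and then under DMSO.

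**Figure D4:**
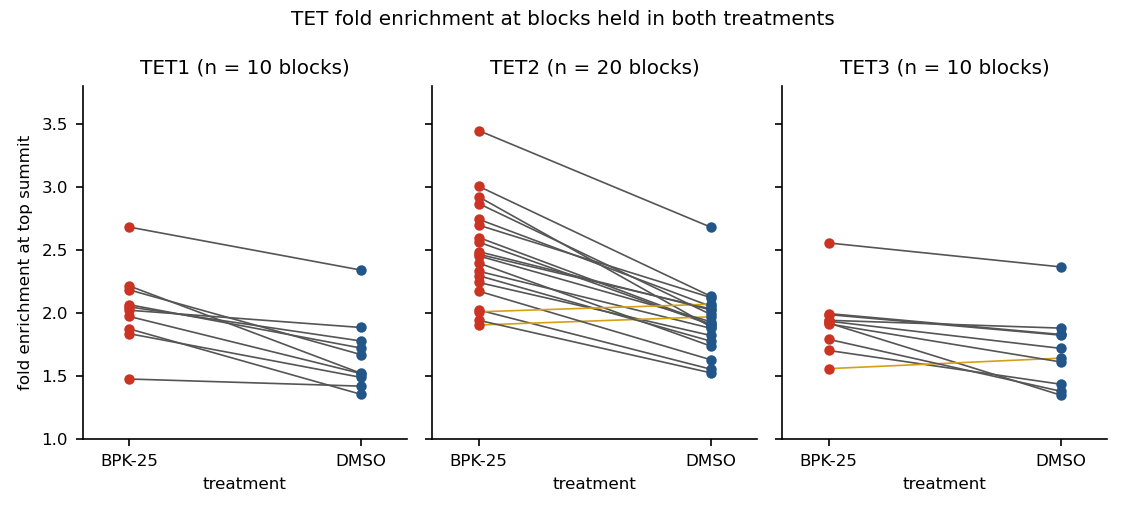
Fold enrichment at the top summit (y axis) of each block held by a TET line under both treatments, BPK-25 left and DMSO right (x axis), with a line per block; grey lines are higher under BPK-25 and yellow lines lower. The values lie between 1.35 and 3.45, and 37 of the 40 lines are grey.

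Counting summits in place of blocks, with summits of both treatments within 100 bp paired, TET1 fold enrichment was higher under BPK-25 at 20 of 21 pairs, TET2 at 37 of 39 and TET3 at 15 of 20. These are 95.2%, 94.9% and 75%, beside 43.0%, 67.7% and 63.0% of all pairs outside the windows. All of these window pairs had a high local background, and of the high-background pairs outside it was higher at 14 of 17, 29 of 29 and 25 of 28. The local background at the window pairs was also higher under BPK-25. It was so at 21 of 21 TET1 pairs, with a median ratio of 1.24, at 36 of 39 TET2 pairs (1.23) and at 20 of 20 TET3 pairs (1.18). Outside the windows the median ratio was below 1: 0.589 in the TET1 lists, 0.610 in those of TET2 and 0.700 in those of TET3. Since fold enrichment divides by the background, pileup differed more: its median ratio of BPK-25 to DMSO was 1.53 for TET1, 1.55 for TET2 and 1.24 for TET3 in the windows, and 0.600, 0.867 and 0.859 outside. Pairs of high local background outside the windows had a background ratio of 0.559 in the TET1 lists, 1.25 in those of TET2 and 0.719 in those of TET3. Their pileup ratio was above 1, as in the windows, with 1.29, 1.56 and 1.49. Each TET line has its own inputs, and the part of the inputs in these differences was not tested.

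The block with the most lists was chr1:121484363-121485419 in the first chromosome 1 window, held by 9 lists, all but MBD3 under BPK-25. Its local background reached 5496 multiples, the highest in the windows. CTCF had a fold enrichment of 1.03 under BPK-25 and 1.28 under DMSO, and MBD3 1.28 under DMSO. TET1 had 2.02 and 1.89, TET2 2.87 and 1.99, and TET3 1.94 and 1.88. Here CTCF and MBD3 pileups were at most 1.28 times the background, and those of the TET proteins were nearly 2 times it or more.

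The second chromosome 10 window held 5 of the 15 blocks in 6 or more lists. At chr10:42596883-42598209, held by 8 lists with a background of up to 3694 multiples, CTCF had 1.49 under BPK-25 and no peak under DMSO, and MBD3 1.49 and 1.41. TET1 had 1.84 and 1.49 there and TET2 2.40 and 1.74, while TET3 had 1.78 under BPK-25 and no peak under DMSO. At chr10:42398523-42400716, also in 8 lists, TET1 had 2.18 and 1.67, TET2 2.74 and 2.05, and TET3 2.00 and 1.83. CTCF was called there under BPK-25 with 1.30, and MBD3 under DMSO with 1.43.

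Some blocks of very high background were held by all 6 TET lists and by no CTCF or MBD3 list. The block chr19:27731925-27734572 had TET1 fold enrichments of 2.68 under BPK-25 and 2.34 under DMSO, TET2 of 3.45 and 2.68, and TET3 of 2.56 and 2.37, at up to 1415 multiples. These were the highest fold enrichments among retained DMSO window peaks for all 3 TET proteins. The block chr7:61968747-61970545 had TET1 values of 2.05 and 1.78, TET2 values of 2.49 and 2.02, and TET3 values of 1.99 and 1.82, at up to 1925 multiples. The block chr2:92324067-92325289 had 1.97 and 1.52, 2.45 and 1.93, and 1.91 and 1.61 in the same order, at up to 818 multiples. At all 3 blocks each TET protein was higher under BPK-25.

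Other high-background places were called under BPK-25 only. At chr17:22020684-22020879 in the first chromosome 17 window, all 5 proteins had a peak under BPK-25 and none under DMSO. Its fold enrichment was 5.75 for TET1, the highest of any TET1 window peak, 3.32 for TET2, 3.43 for TET3, 2.71 for CTCF and 2.62 for MBD3. The local background was 68.7 multiples in the TET1 list and 104 in the CTCF list. At chr16:46404207-46408469 in the second chromosome 16 window, CTCF had 2.28, MBD3 2.21 and TET2 1.57 under BPK-25, at up to 1097 multiples. At chr10:39128787-39128940 in the first chromosome 10 window CTCF and MBD3 both had 3.08 under BPK-25, at 53.2 and 54.2 multiples. At chr17:22254698-22255357, the place of highest background in the first chromosome 17 window, TET2 alone had a peak, with 1.69 under BPK-25 at 299 multiples.

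The first chromosome 4 window held the largest group of high-background CTCF and MBD3 peaks, 24 of CTCF and 23 of MBD3 under BPK-25, against 0 and 1 under DMSO. Its block of highest background, chr4:49151163-49152716, was held by 7 lists. CTCF had a fold enrichment of 7.29 there under BPK-25 and 6.02 under DMSO, and MBD3 6.77 and 4.94. The MBD3 values are from different summits: at the summit of the BPK-25 value MBD3 had 7.17 under DMSO, so that at like summits it was lower under BPK-25. The local background in the CTCF lists reached 123 multiples under BPK-25 and 19.5 under DMSO, and in the MBD3 lists 126 and 20.7. TET3 had 1.86 under BPK-25 only.

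In 5 windows no peak reached 20 multiples in any list: the second of chromosome 1, the second of chromosome 4, the first of chromosome 7, the first of chromosome 16 and the second of chromosome 17. Their blocks of highest background lay between 1.98 multiples, at chr4:52733049-52734562, and 14.0 multiples, at chr17:25263156-25265230. At chr4:52733049-52734562 CTCF had 5.59 and MBD3 6.73 under BPK-25. At chr7:57710617-57716282 CTCF had 4.42 under BPK-25 and 5.57 under DMSO, and MBD3 3.53 and 2.85, with another BPK-25 summit at 5.36. At chr1:142538283-142538534 CTCF had 1.82 and 2.37, and MBD3 1.97 under BPK-25. At chr16:33865173-33865323 CTCF alone had a peak, with 2.69 under BPK-25. At chr17:25263156-25265230 CTCF had 2.55 under BPK-25 and MBD3 3.03 under DMSO.

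In the share retained, CTCF and MBD3 window peaks followed their whole lists more closely than the TET window peaks did. Of 193 DMSO CTCF window peaks, 88 or 45.6% (38.4 to 52.9) were retained, against 39.2% of the whole list, and 588 of 671 BPK-25 peaks were new, against 83.3%. Of 196 DMSO MBD3 window peaks, 151 or 77.0% (70.5 to 82.7) were retained, against 61.4%, and 492 of 632 BPK-25 peaks were new, against 78.2%. With a background under 5 multiples the retained shares were 41.6% for CTCF and 73.5% for MBD3, against 39.0% and 61.2% of the whole lists. With a raised one they were 83.3% and 92.7%, against 81.3% and 84.1%. At window summits of −log10 q of at least 10 the retained share of CTCF was 15.3%, against 16.8% of the whole list. The ratio of BPK-25 to DMSO CTCF peak numbers was then 1.72 in the windows, beside 0.590 over the whole list. Peaks of raised or high local background outside the windows were not counted at this limit. For MBD3 at this limit the retained share was 73.6%, against 51.5%, and the ratio of numbers 4.11, beside 1.94.

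Strong CTCF peaks were far less common under BPK-25 in the windows, as they were in the whole lists. A fold enrichment of 10 or more was found at 11 CTCF window peaks under BPK-25 and 89 under DMSO, or 1.64% and 46.1%, against 0.942% and 53.2% of the whole lists. MBD3 had 10 under BPK-25 and 3 under DMSO, or 1.58% and 1.53%, against 0.932% and 6.32% of the whole lists. No TET window peak reached 10. The median fold enrichment of CTCF window peaks was 3.35 (quartiles 2.65 and 4.31) under BPK-25 and 9.12 (4.06 and 26.5) under DMSO. That of MBD3 was 3.42 (2.61 and 4.48) and 3.24 (2.61 and 4.01).

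At window summits shared between treatments, CTCF pairs that were strong and weak under DMSO mostly went opposite ways. Of 84 pairs, 19 had a fold enrichment of at least 10 under DMSO, and all 19 were lower under BPK-25, with a median of 4.19 (range 2.27 to 20.7) against 30.1 (11.7 to 495). Of the other 65, 49 were higher under BPK-25 and 16 lower, with medians of 4.33 and 3.24 under BPK-25 and DMSO. Dividing the pairs by their DMSO value by itself favours such an opposition, and its part was not tested. Pairs outside the windows were not divided in this way, so whether they differ is not known. Over all 84 pairs 58.3% were higher under BPK-25, beside 39.3% of CTCF pairs outside the windows. With a DMSO background under 5 multiples it was 49.2% against 39.0% outside, and with a raised one 82.6% against 58.0%. For MBD3, 107 of 196 pairs were higher under BPK-25, with medians of 3.49 and 3.23. This is 54.6%, near the 53.2% of MBD3 pairs outside, but within classes of DMSO background the shares differed. With one under 5 multiples it was 58.4% against 53.0% outside, and with a raised one 45.3% against 71.0%. With a high one it was 3 of 6 pairs against 37 of 44. The local background was higher under BPK-25 at 80 of 84 CTCF pairs and 190 of 196 MBD3 pairs, with median ratios of 1.71 and 2.12. Outside the windows these ratios were 0.998 and 1.03. CTCF and MBD3 were set against the same inputs, so the 2 ratios are not independent.

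**Figure D5:**
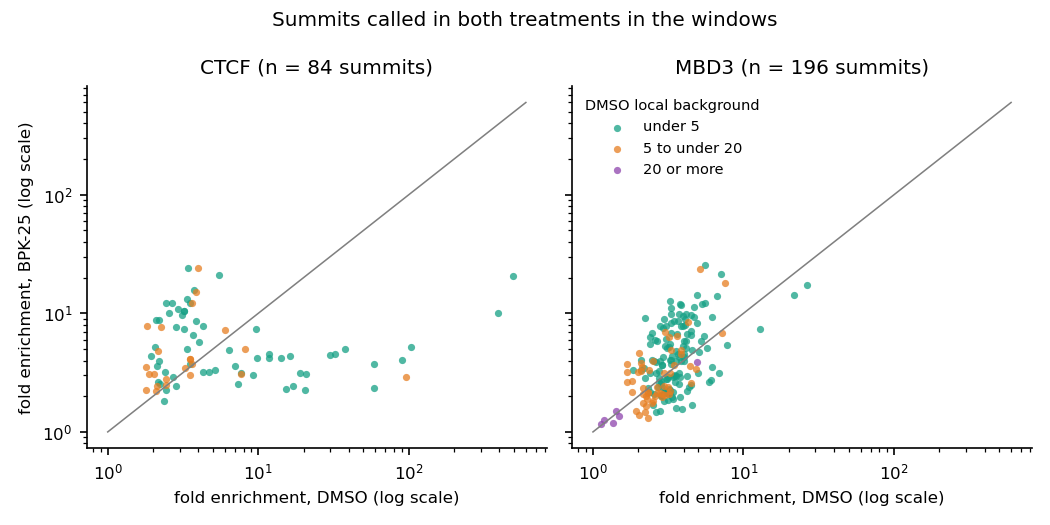
Fold enrichment under BPK-25 (y axis) against DMSO (x axis), both log scales, of window summits called in both treatments within 100 bp, for CTCF (left, 84 pairs) and MBD3 (right, 196 pairs); colours give the DMSO local background in multiples of the genome background and the line marks equal values. The 19 CTCF pairs with a DMSO value of 10 or more all lie under the line, while most of the others lie above it.

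The strongest CTCF sites in the windows stood on low background. At chr2:90276761-90277282 CTCF had a fold enrichment of 20.7 under BPK-25 and 495 under DMSO, and MBD3 17.4 and 26.4, at 1.00 multiples in each list. At chr2:90534395-90535332 CTCF had 10.1 and 392, and MBD3 14.2 and 21.6. At chr7:62475914-62476548 CTCF had 3.97 and 105, and MBD3 3.88 under BPK-25 only. CTCF was lower under BPK-25 by a wide margin at all 3, and MBD3 by less where it was called in both. The third strongest retained MBD3 site, chr1:121260688-121261618, had MBD3 fold enrichments of 7.34 under BPK-25 and 12.8 under DMSO, and CTCF 5.83 and 10.5.

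Strong CTCF sites called under DMSO only, with none within 1000 bp under BPK-25, also stood on low background. Of any strength, 80 of the 193 DMSO CTCF window peaks had no BPK-25 peak within 1000 bp. Among the 671 BPK-25 CTCF window peaks, 523 had no DMSO peak as near. Shares at this distance were not counted over the whole lists. By overlap, 60519 of 99587 DMSO peaks of the whole list were not retained, and 204469 of 245419 BPK-25 peaks were new. In the windows these were 105 of 193 and 588 of 671. The strongest lost sites were chr4:48965071-48965512 with a DMSO fold enrichment of 110, chr16:46588122-46588773 with 93.0 and chr4:52697144-52697695 with 88.0. MBD3 was called under DMSO only at the first, with 4.24, and at the second, with 3.91. At the second, TET3 was called under BPK-25 only, with 6.05 at 1.00 multiples. TET3 under BPK-25 was also called at a DMSO CTCF site of 76.1 at chr4:52762057-52762220, with 6.07, and at chr2:91815133-91815336, with 5.00. At this last place CTCF had 2.90 under BPK-25 and 96.3 under DMSO. These 3 were the highest new TET3 window peaks, and all lay at a background under 7 multiples.

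The strongest new CTCF peaks of the windows were weaker than the strongest lost ones. Over the whole CTCF lists, too, a fold enrichment of 10 or more was rarer under BPK-25, at 0.942% of peaks against 53.2% under DMSO. The highest new window peaks were chr2:91696226-91697822 with a BPK-25 fold enrichment of 14.3, chr7:57544832-57545119 with 11.2 and chr4:49525660-49526631 with 9.47. MBD3 was called at all 3 under BPK-25, with 9.34, 9.81 and 5.98. MBD3 at the first was also called under DMSO, with 6.17. The highest new MBD3 peaks were chr2:90289730-90290123 with 10.8, chr16:33802732-33806238 with 10.0 and chr7:57544868-57545360 with 9.81. CTCF was called under BPK-25 at each of these, with 7.73, 9.23 and 11.2. The highest lost MBD3 peak, chr2:91634439-91634615, had 4.97 under DMSO.

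The highest BPK-25 fold enrichments of both proteins lay together in the chromosome 2 window, a place chosen after its values were seen. CTCF under BPK-25 had 24.1 at chr2:90475372-90477747 and 24.3 at chr2:90480410-90486192. Under DMSO the same stretch held 7 separate CTCF peaks with fold enrichments of 2.94 to 13.2. MBD3 under BPK-25 had 25.6 at chr2:90475370-90477956 and 23.7 at the highest summit of chr2:90480408-90486197, whose most significant summit had 12.9, and under DMSO its highest values there were 6.66, 7.48 and 7.08. The background at the CTCF summits was 5.19 and 9.29 multiples under BPK-25. The DMSO TET3 peak at chr2:90481722-90482047, with 3.41, had no BPK-25 TET3 peak within 1000 bp.

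CTCF and MBD3 peaks coincided more often under BPK-25, in the windows as in the whole lists. In the windows 497 of 671 CTCF peaks, or 74.1%, overlapped an MBD3 peak under BPK-25, and 64 of 193, or 33.2%, under DMSO, against 69% and 36.9% of the whole lists. The MBD3 list was also longer under BPK-25, with 243213 peaks against 82358, and its part was not tested. At window summits of the 2 proteins within 100 bp, 679 pairs under BPK-25 and 67 under DMSO, the local background had a median ratio of CTCF to MBD3 of 1.00 in both treatments. The median fold enrichments were also close, 3.65 for CTCF and 3.68 for MBD3 under BPK-25, and 3.51 and 3.84 under DMSO. The shared inputs give both proteins 1 background at such pairs.

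Peaks of the 3 TET lines also coincided with each other. Under BPK-25, 38 of 39 TET1 window peaks overlapped a TET2 peak and 26 a TET3 peak, or 97.4% and 66.7%, against 62.0% and 79.0% of the whole TET1 list. Under DMSO it was 15 and 11 of 18, or 83.3% and 61.1%, against 14.4% and 59.2%. Over TET1 peaks of high local background in the whole lists, 93.7% overlapped a TET2 peak under BPK-25 and 69.4% under DMSO. The shares of these TET1 peaks on a TET3 peak were 58.9% and 75%. Of the TET3 window peaks 29 of 35 under BPK-25 and 14 of 16 under DMSO overlapped a TET2 peak, or 82.9% and 87.5%, against 2.78% and 6.72% of the whole TET3 lists. Over TET3 peaks of high local background in the whole lists it was 64.3% in both treatments. TET2 window peaks overlapped a TET3 peak less often, 28 of 63 under BPK-25 and 14 of 31 under DMSO, or 44.4% and 45.2%, against 73.9% and 78.7% of the whole TET2 lists and 33.5% and 42.9% of their high-background peaks. TET2 had the highest fold enrichment of the 3 in the windows: it exceeded TET3 at 38 of 39 paired summits under BPK-25 and at 18 of 18 under DMSO, and TET1 at 52 of 55 and at 21 of 21. Outside the windows it exceeded TET3 at 115 of 381 pairs under BPK-25 and 288 of 871 under DMSO. TET1 exceeded TET2 there at 100 of 286 pairs under BPK-25 and 434 of 787 under DMSO. All of these window pairs had a high local background, and outside pairs of that class were not counted apart. These compare lines with their own inputs and depths.

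TET peaks met CTCF and MBD3 peaks less often than in the whole lists under DMSO. Under BPK-25, 9 of 39 TET1 window peaks overlapped a CTCF peak and 6 an MBD3 peak, or 23.1% and 15.4%, against 26.0% and 25.3% of the whole list. Under DMSO it was 2 and 5 of 18, or 11.1% and 27.8%, against 67.6% and 83.2%. TET3 under DMSO had 2 and 5 of 16, or 12.5% and 31.3%, against 58.1% and 82.6%, and under BPK-25 11 and 8 of 35, or 31.4% and 22.9%, against 42.5% and 44.8%. Peaks of high local background had low shares over the whole DMSO lists too, 8.33% on CTCF and 33.3% on MBD3 for TET1, and 23.8% and 45.2% for TET3. At summits of TET and CTCF within 100 bp under BPK-25, CTCF had the lower fold enrichment at 11 of 11 TET1 pairs, 14 of 18 TET2 pairs and 12 of 13 TET3 pairs. The background was higher in the CTCF list there, with median ratios of 1.60, 1.63 and 1.56, and similarly outside the windows, with 1.59, 1.69 and 1.54.

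The remaining places named by rank were of low enrichment. The highest TET1 DMSO window peaks with no BPK-25 TET1 peak near were chr19:28284495-28285031 with 3.85, which CTCF and MBD3 shared in both treatments, chr2:92297920-92298124 with 1.50 and chr2:92296134-92296341 with 1.39. TET2 lost chr16:35253707-35253945 with 4.41 and chr7:61083598-61083800 with 3.10, the 2 DMSO peaks of TET2 that were not retained. TET3 lost chr2:92296079-92296320 with 1.46 and chr19:27733917-27734141 with 1.27. New TET1 peaks after the chromosome 17 one were chr16:35243806-35244027 with 3.47 and chr10:42532436-42532604 with 2.43, and new TET2 peaks chr2:92297343-92297587 with 2.42 and chr10:42404390-42404578 with 2.28. The other retained TET peaks of high rank were TET2 at chr2:92291410-92291579, with 3.00 under BPK-25 and 2.13 under DMSO, and at chr2:92312625-92313070, with 2.70 and 2.12.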

How the data were processed

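The deposited data are 10 peak lists, 1 per protein and treatment, on hg19. The submitters' processing notes name FastQC 0.11.7, Bowtie2 2.3.4, SAMtools 1.9, MACS2 2.1.2 and bedtools 2.25.0. What each did, and with which settings, is not given in the sources used here. Each list gives, as the authors deposited it, a fold enrichment (a ratio of pileup to background), a −log10 p-value, a −log10 q-value, used as a score to rank summits, and a summit offset. The lowest −log10 q was 1.30 or 1.31 in every list. Total read numbers were not used here.

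Overlapping or touching intervals were merged into peaks, each with the values of its summit of highest −log10 q. From the deposited fold, taken as pileup plus 1 over background plus 1, and the Poisson −log10 p, the pileup and the local background of a summit were solved. All pileups under 200 were whole to within 0.02. The solver was tested on simulated data. Peaks overlapping a window by 1 bp were members. Shares carry exact Clopper-Pearson intervals. With 1 list a group, no test was run. Alternatives were stricter q, merging within 500 bp, changed windows, 50% coverage, equal pileup and other background limits. In each window the block of highest background was named, and for each protein the 3 strongest retained, lost and new peaks. The members and lists were chosen with earlier results of these data known. Scripts used Python with numpy, pandas and scipy.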

Additional observations from a re-analysis of the deposited data

How the results depend on the processing

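No paired analysis was possible because each list pools the replicates of its group, and for the same reason no replicate was left out. Of 118 values under other settings, 85 stayed within 1.5 times (numbers and fold differences) or within the counting interval (shares), 31 moved further and 2 changed direction. The cause of a change was not tested, except where leaving peaks out leaves few.

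Leaving out peaks of high local background was chosen after seeing the data. It left 1 TET1 window peak in each treatment, 0 of TET2 under BPK-25 and 2 under DMSO, and 5 of TET3 under BPK-25 and 1 under DMSO. The ratios of number became 1.00 for TET1, 0 for TET2, below 1, and 5.00 for TET3, and the retained shares 0% for all 3. The difference in median fold enrichment, BPK-25 minus DMSO, turned to −0.38 for TET1, with 0.437 before, and became 1.59 for TET3. For MBD3 the retained share became 62.2% and that difference 0.270. The peaks were left out of both lists, so that DMSO peaks also lost BPK-25 partners of high background. With these partners kept, 108 of 147 DMSO MBD3 window peaks with a background under 5 multiples were retained, and 38 of 41 raised ones.

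With a −log10 q of at least 5, the retained share was 30.4% for CTCF and 100% for TET2, the MBD3 fold difference 0.267, and the share of DMSO CTCF peaks on MBD3 20.5%. With at least 10, the CTCF ratio of number was 1.72 and its retained share 15.3%. The retained shares of TET1 and TET2 were then 100%, and the fold differences −10.1 for CTCF, 0.716 for MBD3 and 0.218 for TET3. The share of DMSO CTCF peaks on MBD3 was then 12.5%. Without the chromosome 2 window, the retained share of MBD3 was 70.2%, the fold differences 0.102 for TET2 and 0.103 for TET3, and the share of DMSO CTCF peaks on MBD3 23.4%. With windows narrowed by 100 kb on each side, the retained shares were 83.4% for MBD3 and 100% for TET2, and the fold differences 0.078 for TET2 and 0.140 for TET3. With 50% of the peak covered, the retained share of CTCF was 35.8%, and the shares of CTCF peaks on MBD3 were 69.0% under BPK-25 and 26.4% under DMSO.

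Merging intervals within 500 bp, using the highest summit of a peak and asking for a pileup of at least 10 genome backgrounds moved no value that far. With 10 or 50 multiples as the limit, high-background shares were 17.3% or 5.22% for CTCF and 14.4% or 4.75% for MBD3, both under BPK-25.

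Depth was not matched between lists, and its part in the numbers was not tested: the genome background was lower under BPK-25 in all 5 pairs of lists, and the lowest pileup called was 8 to 11 fragments. The TET shares rest on 16 to 31 DMSO peaks.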
